A study of Mus musculus with 10 samples.

Results

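The expression of 10 receptors for peptide mediators of inflammation was characterized in vagal sensory neurons of the mouse. The receptors were chosen by gene symbol out of the 24421 rows of the count tables, and all 10 had a row. They are the kinin receptors Bdkrb1 and Bdkrb2, the angiotensin II receptor Agtr1a, the endothelin receptors Ednra and Ednrb, the tachykinin receptors Tacr1, Tacr2 and Tacr3, and the complement anaphylatoxin receptors C3ar1 and C5ar1.

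Each sample was a pool of neurons picked one by one under the microscope from the caudal (nodose) or the rostral (jugular) end of the vagal ganglion complex, and there were 10 pools in 5 groups of 2 replicates. In the Trpv1-tdTomato selection, neurons came from Trpv1-tdTomato mice, which carry Cre recombinase under the Trpv1 gene and a Cre-dependent red reporter in Rosa26, so that cells which express or once expressed Trpv1 are red. This selection held Trpv1+ nodose (30 red cells per pool), Trpv1+ jugular (30 red cells per pool) and Trpv1- nodose pools (15 cells without the reporter's colour per pool). In the capsaicin selection, neurons of C57BL/6 mice were tested in a calcium assay before picking, and a response to both capsaicin and the P2X agonist α,β-methylene ATP put a cell into the nodose pools (14 and 15 cells), and a response to capsaicin alone into the jugular pools (15 and 16 cells). The labels give no age of the mice. All 6 Trpv1-tdTomato pools came from the same 2 mice, and which mouse gave which pool is not stated in either selection, so these pools are not separate animals and p-values measure the spread between pools, which may be technical in part.

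All of these receptors are G protein-coupled. Bradykinin, angiotensin II, endothelins, substance P and the anaphylatoxins are released or generated at sites of inflammation and tissue injury, and most of their receptors signal through Gq, phospholipase C and calcium. In sensory neurons this route is known for sensitising TRPV1, the ion channel opened by capsaicin, and bradykinin is a classical stimulant of vagal C-fibers.

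The pools of the Trpv1-tdTomato selection held 148452506 to 167704327 counts and those of the capsaicin selection 17666710 to 30810863. Levels are given as CPM, counts scaled to a common library total by DESeq2's size factors over all 10 pools. A level of 3 counts, taken as the smallest that can be told from 0, corresponded to 0.0116 to 0.0154 CPM in the first selection and to 0.118 to 0.176 CPM in the second, and this floor covers counting error only. Between the selections, the mouse strain, the calcium assay, the core that sequenced the pools and the depth all differ, and these cannot be told apart. The cell labels were checked against markers. Trpv1 was at 17.8 to 248 CPM in the 8 pools selected for it and at 0.0334 to 0.0348 CPM in the Trpv1- pools. P2rx2 and Hoxb5, which mark nodose neurons, stood at 61.4 CPM or more in every nodose pool and at 0.235 CPM or less in every jugular pool. Prdm12 and Gfra3, which mark jugular neurons, stood at 22.2 CPM or more in every jugular pool and at 1.02 CPM or less in every nodose pool. This check is not fully independent. The study named Hoxb5 and Prdm12 from these same pools, and the capsaicin pools were sorted by a P2X response. Replicates of the capsaicin selection differed in which genes they held. Of the genes with at least 10 CPM in 1 replicate, 37.5% in the capsaicin nodose group and 22.5% in the capsaicin jugular group had at most 3 counts in the other, against 6.09% to 9.58% in the groups of the Trpv1-tdTomato selection. Ednra was among these genes in both capsaicin groups, and Ednrb in the capsaicin jugular group.

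Among the 10 receptors, only Ednrb, Agtr1a and Ednra reached 10 CPM in any pool. Ednrb did so in 8 of 10 pools, and Agtr1a and Ednra in 3 pools each. These 3 receptors are 30% of the 10, whereas 46.7% of all rows reached 10 CPM in some pool. Bdkrb1, Bdkrb2 and Tacr2 had 0 counts in all 10 pools, as did 33.5% of all rows. Tacr1, Tacr3, C3ar1 and C5ar1 were detected at most at 1.55 CPM. Of the 10, only Agtr1a and Ednrb had at least 10 CPM in both replicates of a group.

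**Figure D1:**
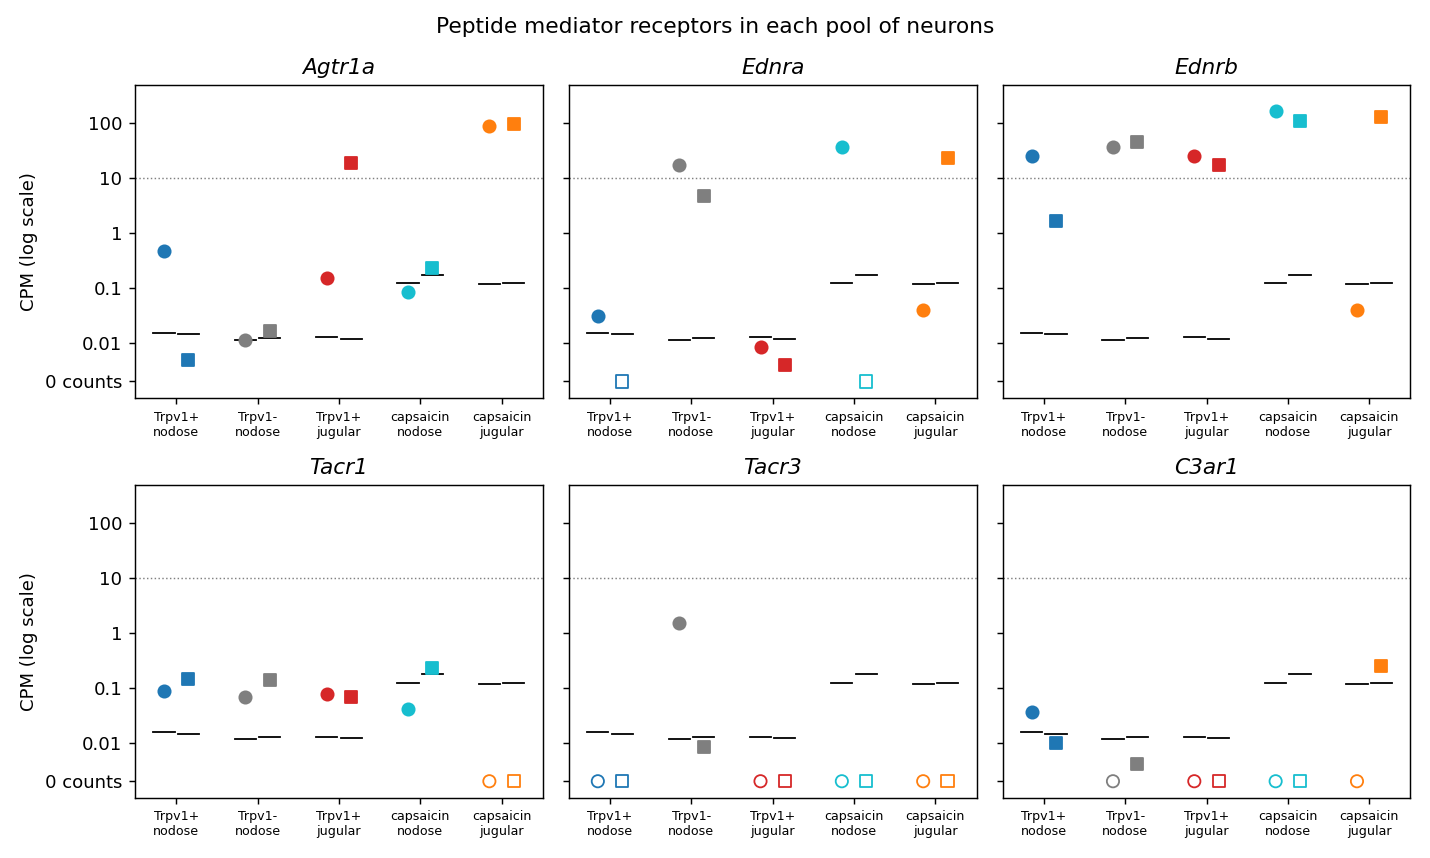
CPM on a log scale (y axis) of the 6 receptors with more than 3 counts in any pool, by group (x axis). Circles are replicate 1 and squares replicate 2, open symbols are pools with 0 counts, short bars mark the level of 3 counts in each pool, and the dotted line marks 10 CPM. Agtr1a was at 91.1 and 99.1 CPM in the capsaicin jugular pools and at 0.234 CPM or less in the capsaicin nodose pools, while Ednrb was above 10 CPM in 8 of 10 pools.

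Agtr1a, which encodes the main receptor for angiotensin II in rodents and couples to Gq, stood at 10 CPM or more in 3 of the 4 jugular pools and in no nodose pool. It lies on chromosome 13 from 30336441 to 30382867 on the plus strand of GRCm38. In the capsaicin selection it had 2322 and 2376 counts (91.1 and 99.1 CPM) in the jugular pools, against 2 and 4 counts (0.0834 and 0.234 CPM) in the nodose pools. The groups did not overlap, and the means were 95.1 ± 5.62 CPM and 0.159 ± 0.107 CPM (SD, n = 2). The ratio of the scaled summed counts was 650.2, with a 95% exact binomial interval of 299 to 1773 for counting error.

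In the Trpv1-tdTomato selection, the jugular pools had 36 and 4781 counts of Agtr1a (0.155 and 19.3 CPM) and the nodose pools 94 and 1 count (0.484 and 0.00490 CPM). Here the groups overlapped, since the first jugular pool lay below the first nodose pool and the second jugular pool alone was high. The Trpv1- nodose pools had 3 and 4 counts (0.0116 and 0.0167 CPM). In the order of group means per kilobase of exon, Agtr1a was at 34.1 ± 2.02 CPM per kb in capsaicin jugular, 3.49 ± 4.86 in Trpv1+ jugular, 0.0877 in Trpv1+ nodose, 0.0570 in capsaicin nodose and 0.00508 in Trpv1- nodose pools (n = 2 each). The first of these groups did not overlap the second, the second overlapped the third, and the third overlapped the fourth. The fourth and the fifth did not overlap in CPM per kb, but both had 2 to 4 counts in each pool.

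In the capsaicin selection, the log2 fold change of Agtr1a (nodose minus jugular) was -9.60 with a standard error of 2.15 (edgeR quasi-likelihood adjusted p = 0.352). It was not called by edgeR, which called 0 of 8181 genes (0%) in this comparison. Of these, 1150 had an unadjusted p under 0.05, Agtr1a among them. DESeq2 did call it, with a log2 fold change of -9.55 ± 2.42 (SE) and an adjusted p of 0.00117. DESeq2 called 6.53% of its 10822 genes in that comparison, and 5.58% as lower in nodose. In the fit to all 8 pools of both selections, the log2 fold change was -7.34 ± 2.61 (edgeR adjusted p = 0.352) or -7.20 ± 1.66 (DESeq2 adjusted p = 0.000183), where edgeR called 0.577% and DESeq2 8.08% of all genes, 5.5% as lower in nodose.

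In the Trpv1-tdTomato selection alone, the log2 fold change of Agtr1a was -5.34 ± 3.59 (edgeR adjusted p = 0.74, DESeq2 adjusted p = 0.179). Without the second Trpv1+ jugular pool it was 0.63, so the direction in that selection rests on this pool. Without the first Trpv1+ nodose pool, the other that overlapped, it was -10.80. The difference between the 2 selections was itself tested as an interaction and did not pass (log2 4.46 ± 3.73, edgeR adjusted p = 0.776). edgeR called 0.318% and DESeq2 3.82% of all genes in this selection, and 0% and 8.11% for the interaction.

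Since bulk RNA was measured, fewer cells with a transcript and less of it per cell cannot be told apart. The summed markers of pericytes and of fibroblasts, cells that can also carry Agtr1a, were higher in the jugular pools of the capsaicin selection. In the other selection the fibroblast markers differed among themselves. The summed level of 6 pericyte and smooth muscle markers was 0 in both capsaicin nodose pools and 10.4 to 32.0 CPM in the capsaicin jugular pools, where Rgs5 made up 10.2 and 31.8 CPM and Acta2, Myh11 and Cspg4 were at 0. The sum of 6 fibroblast markers was 0 to 38.4 CPM in the nodose and 41.6 to 239 CPM in the jugular pools. In the jugular pools it was made up of Dcn (239 and 16.97 CPM) and Col1a2 (0 and 24.6 CPM). Col1a1, Col3a1, Lum and Pdgfra were at 0 there. In the nodose pools Dcn was at 38.4 and 0 CPM and Col1a2 at 0. In the Trpv1-tdTomato selection Rgs5 had 0 counts throughout. The pericyte sum was 0.00490 to 0.118 CPM in Trpv1+ nodose, 2.09 and 3.36 CPM in Trpv1- nodose, and 0.0904 and 10.6 CPM in Trpv1+ jugular pools, the last being Tagln in the pool high in Agtr1a. The fibroblast sum was 30.8 CPM in the Trpv1+ jugular pool low in Agtr1a and 4.71 CPM in the pool high in it. It was 0.221 to 7.81 CPM in Trpv1+ nodose pools, and 14.4 and 19.3 CPM in Trpv1- nodose pools. In the Trpv1+ jugular pool low in Agtr1a, Lum was at 24.2 CPM, Dcn at 6.55 CPM and Col1a2 at 0. In the pool high in Agtr1a, Col1a2 was at 4.70 CPM, Lum at 0.00404 CPM and Dcn at 0. The part of these pericyte and fibroblast markers in the result was not tested.

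Other genes of the angiotensin system were sparse. Agtr1b, a near-identical copy of Agtr1a, had 156 counts (6.12 CPM) in the first capsaicin jugular pool, 6 and 3 counts in 2 other pools and 0 counts in the remaining 7. How reads shared by the 2 copies were counted is not stated, so the split between them is uncertain. Agt, the precursor of angiotensin, was at 2.90 CPM in 1 Trpv1+ nodose pool and 7.44 CPM in 1 Trpv1- nodose pool and had at most 3 counts elsewhere. Agtr2 and Mas1, further receptors for angiotensin peptides, had at most 3 counts in any pool. The genes of this list with the highest levels were Atp6ap2, the (pro)renin receptor and an accessory subunit of the vacuolar proton pump (21.3 to 973 CPM), and Lnpep, an aminopeptidase that binds an angiotensin fragment (0 to 16.99 CPM). Neither tool called any of these 9 genes in any comparison.

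**Figure D2:**
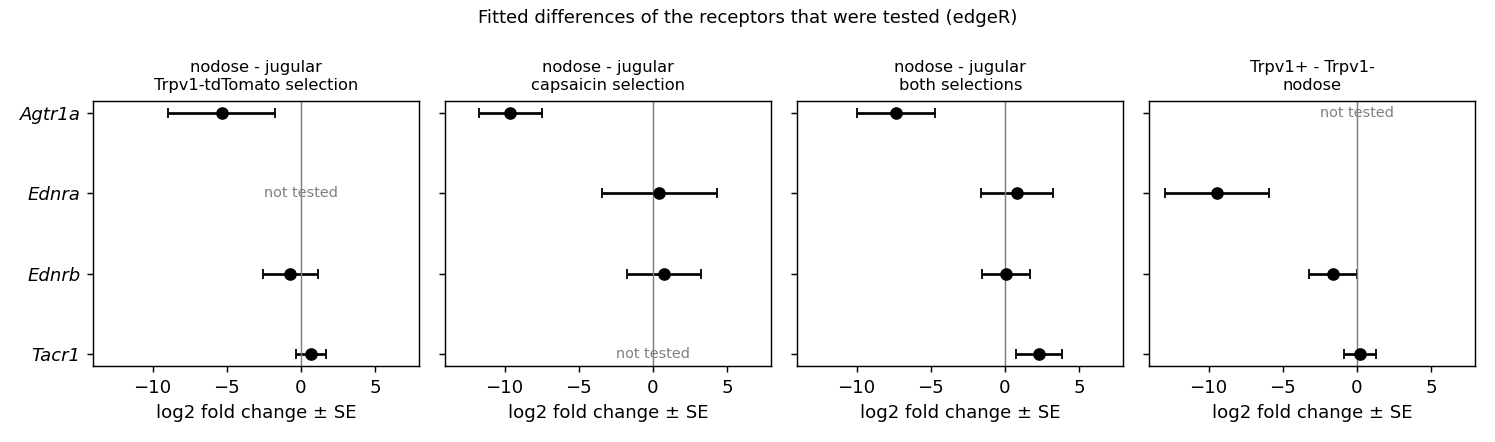
Log2 fold change with its standard error (x axis, edgeR) for the 4 receptors that could be tested (rows) in 4 comparisons (panels), negative values meaning lower in the first-named group. "Not tested" marks genes that the filter on low counts removed. The values of Agtr1a are -5.34, -9.60 and -7.34 in the 3 comparisons of nodose with jugular pools, and Ednra is at -9.44 in Trpv1+ against Trpv1- nodose pools.

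Ednrb, the endothelin receptor that binds all endothelins with like affinity, was the most widely detected of the receptors. It lies on chromosome 14 from 103814625 to 103844402 on the minus strand. In the Trpv1+ nodose pools it was at 25.0 and 1.65 CPM, and in the Trpv1+ jugular pools at 25.5 and 17.5 CPM. The Trpv1- nodose pools had 36.4 and 44.9 CPM. The capsaicin nodose pools had 170.5 and 109 CPM, and the capsaicin jugular pools 0.0392 and 129.7 CPM. The first capsaicin jugular pool had 1 count of Ednrb, and the second had 3112.

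The order of the group means was 32.8 ± 10.2 CPM per kb in capsaicin nodose, 15.2 ± 21.5 in capsaicin jugular, 9.53 ± 1.40 in Trpv1- nodose, 5.04 ± 1.33 in Trpv1+ jugular and 3.13 ± 3.87 in Trpv1+ nodose pools (SD, n = 2). The third and the fourth of these did not overlap, and the other neighbours did. Per kilobase, the mean of Ednrb was above that of Agtr1a and Ednra in 4 of 5 groups, the exception being the capsaicin jugular group, where Agtr1a was higher.

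The log2 fold change of Ednrb between nodose and jugular pools was -0.71 ± 1.87 in the Trpv1-tdTomato selection (edgeR adjusted p = 0.969) and 0.74 ± 2.51 in the capsaicin selection (edgeR adjusted p = 1). In the 8 pools of both selections it was 0.08 ± 1.62. Between Trpv1+ and Trpv1- nodose pools, which did not overlap, it was -1.59 ± 1.61 (edgeR adjusted p = 0.888). None of these passed. Leaving out the second Trpv1+ nodose pool moved the first of these values to 0.19, and leaving out the first capsaicin jugular pool moved the second to -0.23.

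Satellite glia and Schwann cells carry Ednrb too. The summed level of 10 of their markers was 427 to 1065 CPM in the capsaicin selection and 2682 to 3745 CPM in the Trpv1-tdTomato selection, whereas Ednrb was higher in 3 of the 4 capsaicin pools than in any pool of the other selection. Apoe made up most of the sum in the Trpv1-tdTomato selection (2041 to 3079 CPM). Sox10, the transcription factor that defines these cells, had 0 counts in all 4 capsaicin pools, at most 0.177 CPM in the Trpv1+ pools, and 10.2 and 2.24 CPM in the Trpv1- nodose pools. Some markers of the list, such as S100b, are also known from sensory neurons. The 2 pools lowest in Ednrb had marker sums of 668 and 3298 CPM, inside the ranges of their selections.

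**Figure D3:**
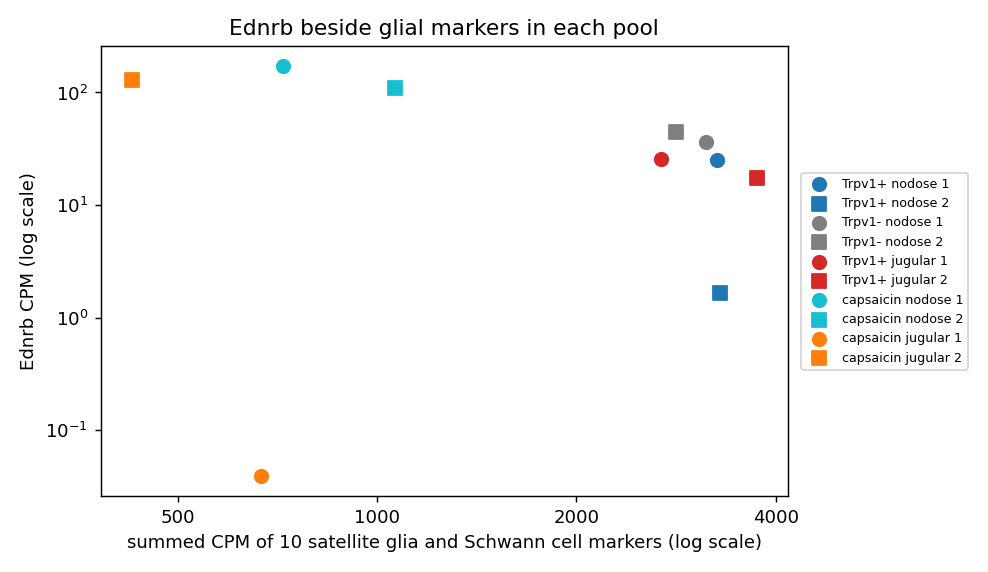
Ednrb in CPM (y axis, log scale) against the summed CPM of 10 satellite glia and Schwann cell markers (x axis, log scale), 1 point per pool, with colours for groups, circles for replicate 1 and squares for replicate 2. The capsaicin pools lie at marker sums of 427 to 1065 CPM with Ednrb at 109 to 170.5 CPM in 3 of them and 0.0392 CPM in the fourth, and the Trpv1-tdTomato pools at 2682 to 3745 CPM with Ednrb at 1.65 to 44.9 CPM.

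Ednra, the receptor that prefers endothelin 1 and 2 and is known from vascular smooth muscle, was at 17.4 and 4.71 CPM (4507 and 1130 counts) in the Trpv1- nodose pools, against 6 and 0 counts (0.0309 and 0 CPM) in the Trpv1+ nodose pools. It lies on chromosome 8 from 77663031 to 77724464 on the minus strand, where an exon overlaps 4933431K23Rik on the other strand. Whether the counting used strand is not stated, so reads of the 2 genes cannot be told apart. The groups did not overlap, and the ratio of the scaled summed counts was 750.5 (95% exact binomial interval 345 to 2046, counting error). The Trpv1+ jugular pools had 2 and 1 counts. In the capsaicin selection each ganglion had 1 pool with Ednra and 1 without, since the nodose pools were at 37.5 and 0 CPM and the jugular pools at 0.0392 and 23.4 CPM. In group means per kilobase, Ednra was at 3.42 ± 4.84 CPM per kb in capsaicin nodose, 2.14 ± 3.02 in capsaicin jugular, 2.02 ± 1.64 in Trpv1- nodose, 0.00282 in Trpv1+ nodose and 0.00116 in Trpv1+ jugular pools (n = 2 each). The third and the fourth of these did not overlap, and the other neighbours did.

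The log2 fold change of Ednra (Trpv1+ minus Trpv1- nodose) was -9.44 ± 3.49 (edgeR adjusted p = 0.417). edgeR called 6 of 11386 genes (0.0527%) there, 0% as lower in Trpv1+ pools, and 1264 had an unadjusted p under 0.05, Ednra among them. DESeq2 gave -9.45 ± 2.23 with an adjusted p of 0.000361, yet Ednra was not called at the study's thresholds, as it did not have 10 CPM in both replicates. DESeq2 called 2.75% of all genes there. Between the capsaicin nodose and jugular pools the value was 0.43 ± 3.87, and without the first nodose pool it turned to -11.22. In the 8 pools of both selections it was 0.83 ± 2.45.

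Some markers of other cells, though not all, were higher along with Ednra in the Trpv1- nodose pools. Sox10, the glial factor, was at 10.2 and 2.24 CPM there and at 0 and 0.177 CPM in Trpv1+ nodose pools, while the sum of the glial list was 2829 to 3138 CPM and 3258 to 3298 CPM. Fibroblast markers summed to 14.4 and 19.3 CPM against 7.81 and 0.221 CPM, with the collagen gene Col3a1 at 12.01 and 15.2 CPM against 0.139 and 0. Pericyte and smooth muscle markers summed to 2.09 and 3.36 CPM there and to 0.00490 to 0.118 CPM in the Trpv1+ nodose pools, with Pdgfrb at 3.35 CPM in the first Trpv1- pool and 0 in the second, and with Rgs5 and Myh11 at 0 in both groups. Endothelial markers did not follow Ednra, with sums of 0 and 2.45 CPM in Trpv1- against 0 and 24.9 CPM in Trpv1+ nodose pools. Nor did macrophage markers, with sums of 0.522 and 0.0167 CPM against 4.66 and 0 CPM. In the capsaicin nodose pool with Ednra at 37.5 CPM, all 6 pericyte and smooth muscle markers were at 0. Other markers were higher in that pool than in its replicate without Ednra, among them Dcn (38.4 against 0 CPM), Cd68 (75.7 against 0.117 CPM) and Mbp (65.0 against 0.351 CPM). In the capsaicin jugular pools Dcn and Cd68 were higher in the pool with 1 count of Ednra (239 and 17.9 CPM) than in the pool at 23.4 CPM (16.97 and 0 CPM). The part of these markers in the level of Ednra was not tested.

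Of the endothelin ligands, Edn3, which encodes endothelin 3, was also higher in Trpv1- than in Trpv1+ pools, with 5871 and 2679 counts (22.7 and 11.2 CPM) in the Trpv1- nodose pools, 2 and 1 counts in Trpv1+ nodose, 1 count in each Trpv1+ jugular pool, and 0 counts in the capsaicin selection. Its log2 fold change (Trpv1+ minus Trpv1- nodose) was -11.01 ± 2.76 (edgeR adjusted p = 0.366, DESeq2 adjusted p = 4.95e-08). DESeq2 called it, and edgeR did not. Edn1, endothelin 1, was at 0.935 and 1.49 CPM in Trpv1- nodose pools and at 0.0412 CPM or less elsewhere (edgeR adjusted p = 0.411). Edn2 had 0 counts in all pools.

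The converting enzyme Ece1, which releases endothelins from their precursors and also degrades bradykinin and substance P, was at 45.6 to 207.9 CPM in the capsaicin pools and 0.780 to 30.4 CPM in the others. Ece2, its relative, was uneven between replicates, with 45.7 and 0.00404 CPM in Trpv1+ jugular pools. No gene of these 5 was called by edgeR in any comparison. DESeq2 called Edn3, and Ece2 for the interaction of ganglion and selection.

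No tachykinin receptor reached 2 CPM in any pool. Tacr1, the receptor for substance P, had 17 to 33 counts in each of the 6 Trpv1-tdTomato pools (0.0687 to 0.147 CPM), 1 and 4 counts in capsaicin nodose pools, and 0 counts in capsaicin jugular pools. Its levels in Trpv1+ nodose (0.0875 and 0.147 CPM), Trpv1+ jugular (0.0775 and 0.0687 CPM) and Trpv1- nodose pools (0.0696 and 0.138 CPM) were all near 0.1 CPM. The log2 fold change of Tacr1 was 0.67 ± 1.02 between Trpv1+ nodose and jugular pools (edgeR adjusted p = 0.931) and 0.22 ± 1.07 between Trpv1+ and Trpv1- nodose pools (edgeR adjusted p = 0.995). At the depth of the capsaicin jugular pools, a count of 0 allows up to 0.118 to 0.125 CPM, and the level in 4 of the 6 Trpv1-tdTomato pools lay below that limit.

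Tacr3, the receptor that prefers neurokinin B, was seen in 1 pool alone, with 400 counts (1.55 CPM) in the first Trpv1- nodose pool, 2 counts in the second and 0 in the other 8. Against 0 counts in the Trpv1+ nodose pools this was at least 107-fold higher, from a floor of 3 counts over the group. DESeq2 gave it an adjusted p of 0.024, but it did not reach 10 CPM, and the filter of edgeR removed it. Tacr2, the receptor that prefers neurokinin A, had 0 counts throughout.

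The ligand gene Tac1, which encodes substance P and neurokinin A, was at 860.1 and 670.1 CPM in Trpv1+ jugular pools and at 1080 and 249 CPM in capsaicin jugular pools, against 0.191 to 0.767 CPM in all 6 nodose pools. It was lower in nodose in the Trpv1-tdTomato selection by a log2 fold change of -10.65 ± 0.95 (edgeR adjusted p = 0.0453) and in the 8 pools of both selections by -10.45 ± 0.81 (edgeR adjusted p = 0.000262). In the capsaicin jugular pools, Tacr1, Tacr2 and Tacr3 all had 0 counts beside this ligand. Tac4, the gene of hemokinin 1, had 2138 counts (8.92 CPM) in 1 Trpv1- nodose pool and at most 3 elsewhere. Tac2, the gene of neurokinin B, had 0 counts in all pools.

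Neither kinin receptor was detected. Bdkrb2, the constitutive bradykinin receptor, lies on chromosome 12 from 105563226 to 105595237, and Bdkrb1, the inducible receptor for des-Arg kinins, lies beside it from 105603085 to 105605428, both on the plus strand. Each had 0 counts in all 10 pools, which allows up to 0.0154 CPM in the Trpv1-tdTomato selection and up to 0.176 CPM in the capsaicin selection. The kininogen genes Kng1 and Kng2 and the tissue kallikrein gene Klk1 had at most 20 counts in any pool, and plasma kallikrein (Klkb1) was at 0.273 CPM or less. Of the 7 genes of this list, only 2 reached 10 CPM in any pool, both of them carboxypeptidases that make des-Arg kinins. Cpn1 was at 60.8 and 17.9 CPM in capsaicin jugular pools and at 0.0970 CPM or less in the other 8, with a log2 fold change (nodose minus jugular, capsaicin selection) of -9.79 ± 3.18 (edgeR adjusted p = 0.352, DESeq2 adjusted p = 0.00191). Cpm was at 16.7 CPM in the second capsaicin jugular pool and at 1.93 CPM or less in the others. Mme, the peptidase neprilysin, had at most 2 counts.

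The complement receptors were at or near 0. C3ar1, the receptor for C3a, had 7 and 2 counts in Trpv1+ nodose pools, 6 counts (0.250 CPM) in the second capsaicin jugular pool, 1 count in a Trpv1- nodose pool and 0 counts in 6 pools. C5ar1, the receptor for C5a, had 2 counts in the first Trpv1+ nodose pool (0.0103 CPM, below the floor) and 0 in the other 9. Both are known from macrophages and neutrophils. Of 10 macrophage markers, 8 had 0 counts in all pools, among them Csf1r, Aif1, Ptprc and the C1q genes, and the sum of the list, almost all of it Cd68, was 0 to 75.7 CPM. C5ar2, the other C5a receptor, was at 0.218 to 0.426 CPM in the Trpv1-tdTomato pools and had 0 counts in the capsaicin pools.

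The complement proteins C3 and C5 (Hc) were at 0.542 CPM or less, and regulators stood higher. Serping1, which encodes the C1 inhibitor that also restrains plasma kallikrein and so kinin release, was at 216 and 220 CPM in Trpv1+ jugular and 461 and 376 CPM in capsaicin jugular pools, against 54.3 and 16.8 CPM in Trpv1+ nodose and 173 and 49.1 CPM in capsaicin nodose pools. Every jugular pool lay above every nodose pool. Its log2 fold change over both selections was -2.34 ± 0.62 (edgeR adjusted p = 0.243, DESeq2 adjusted p = 0.0276), so DESeq2 called it and edgeR did not. Cd55, which breaks up the complement convertases on the cell surface, was at 13.2 to 661 CPM, with overlap between the ganglia (-1.43 ± 0.81, edgeR adjusted p = 0.636). Cd59a, which blocks the membrane attack complex, was at 22.2 to 178 CPM across all pools.

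Downstream of the receptors, 2 core genes of the Gq pathway were present in every pool. Gnaq, the α subunit of Gq, was at 403 to 703 CPM in capsaicin pools and 35.5 to 110 CPM in the others, and Plcb3, a phospholipase C that Gq activates, was at 27.3 to 231 CPM. Gna14, a relative of Gnaq that also couples receptors to phospholipase C, followed the ganglion, with 120 to 343 CPM in the 4 jugular pools and 0.0191 to 0.234 CPM in the 6 nodose pools. Its log2 fold change over both selections was -11.34 ± 0.91 (edgeR adjusted p = 0.000262). Agtr1a stood at 10 CPM or more in 3 of the 4 pools with high Gna14, the exception being the first Trpv1+ jugular pool. Ano1, a calcium-activated chloride channel, had 0 counts in all pools.

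Rgs4, which shortens Gq and Gi signals, had the highest mean level of the receptor kinases, arrestins and RGS genes, at 505 to 3109 CPM in jugular and 170 to 618 CPM in Trpv1+ and capsaicin nodose pools, while the Trpv1- nodose pools, which this comparison does not hold, had 598 and 779 CPM. Its log2 fold change over both selections was -2.03 ± 0.41 (edgeR adjusted p = 0.092), so it was called, although the ranges of the 2 ganglia overlapped across selections. Rgs2, another brake on Gq, was at 68.2 and 83.7 CPM in Trpv1+ nodose against 0.00861 and 0.00404 CPM in Trpv1+ jugular pools (log2 13.43 ± 1.70, edgeR adjusted p = 0.122, DESeq2 adjusted p = 1.15e-11). The capsaicin nodose pools had 0.0417 and 0.0585 CPM of Rgs2 and the capsaicin jugular pools 24.2 and 0 CPM, so the order of the first selection was not seen there, and DESeq2, though not edgeR, called the interaction (adjusted p = 8.07e-07 and 0.478). Arrb1, a β-arrestin that ends receptor signalling, was at 0.351 to 164 CPM.

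Over the 59 genes of these pathways that were listed beside the receptors, edgeR tested 32 in the Trpv1-tdTomato comparison of nodose with jugular pools and called 2, Tac1 and Gna14, both lower in nodose, against 0.136% of all genes called in that direction. Over both selections it called 3 of 32, namely Tac1, Gna14 and Rgs4, all lower in nodose, against 0.309% of all genes. It called 0 of 22 in the capsaicin selection, 0 of 37 between Trpv1+ and Trpv1- nodose pools and 0 of 32 for the interaction. DESeq2 called 3 of 39 listed genes in the Trpv1-tdTomato selection (3.82% of all genes), 4 of 30 in the capsaicin selection (6.53%), 1 of 44 between Trpv1+ and Trpv1- nodose pools (2.75%), 7 of 38 over both selections (8.08%) and 2 of 35 for the interaction (8.11%). Those not yet named were Prkca, a protein kinase C gene called lower in nodose in the capsaicin selection and over both, and Grk4, a receptor kinase called higher in nodose over both. The median log2 fold change of the listed genes that edgeR tested was 0.33 in the Trpv1-tdTomato selection, where that of all genes tested was 0.03, and -1.09 in the capsaicin selection, where that of all genes was -0.02. It was -0.07 between Trpv1+ and Trpv1- nodose pools (all genes 0.01), -0.36 over both selections (all genes -0.18) and 1.23 for the interaction (all genes 0.44). The lists were chosen with earlier results of these data known, and Tac1 was already established in jugular neurons before the study. These shares and medians are therefore a description only.

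**Figure D4:**
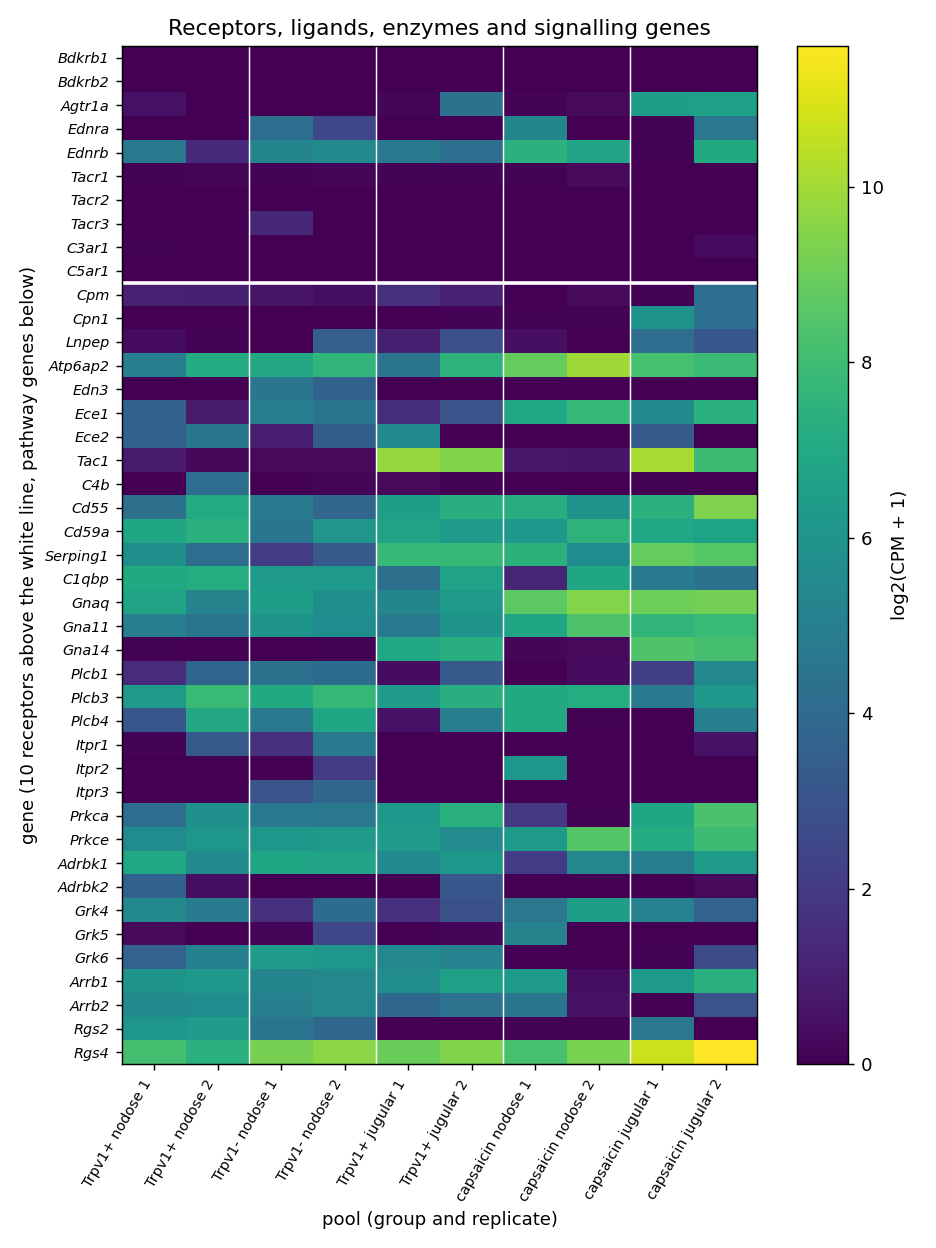
Log2(CPM + 1) (colour) in each pool (columns, by group and replicate) of the 10 receptors (rows above the white line) and of the pathway genes that reached 10 CPM in any pool (rows below it). Only the rows of Agtr1a, Ednra and Ednrb among the receptors reach 10 CPM, and Tac1 and Gna14 are bright in the 4 jugular pools alone.

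For Agtr1a and Ednrb, the genes with the most similar levels were sought among the 7504 genes with at least 10 CPM in both replicates of a group, by Pearson's r of log2(CPM + 1) over the 10 pools. Closest to Agtr1a were Nol11, a nucleolar protein of ribosome assembly (r = 0.993), Atg4a, a protease of autophagy (r = 0.99), and Syt6, a synaptotagmin (r = 0.983). Each was above 8 CPM in the second Trpv1+ jugular pool and both capsaicin jugular pools, and below 1 CPM in the other 7. Closest to Ednrb were Ppt1, a lysosomal enzyme (r = 0.973), Atg13, a starter of autophagy (r = 0.936), and Mgat4a, an enzyme that branches N-glycans (r = 0.932). All 3 were below 1 CPM in the second Trpv1+ nodose and first capsaicin jugular pools, the 2 in which Ednrb was lowest. With so many genes and so few pools, which share depth and selection, these values are a description of the likeness only.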

How the data were processed

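Low-input RNA sequencing libraries (SMARTer Ultra Low Input kit) of 10 pools were made by the authors, aligned to mm10 with TopHat2 2.0.9 and Bowtie2 2.1.0.0, and counted per gene with HTSeq. The deposited values are raw counts per gene symbol. Their annotation and the strand setting of the counting are not given in the sources used here. Groups and replicate numbers were taken from the labels, and cell numbers per pool from the study's methods. The members and gene lists were chosen with earlier results of these data known.

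Counts were tested across all genes with edgeR 4.0.16 in R 4.3.3 (TMM, filterByExpr, quasi-likelihood F test, Benjamini-Hochberg adjustment), on the pools of each comparison. The 8 nodose and jugular pools of both selections were fitted with selection as a term, then with its interaction with ganglion. Following the study's thresholds, calls needed an adjusted p no higher than 0.1, a fold of 2 or more and at least 10 CPM, scaled within the comparison, in both replicates of a group. DESeq2 1.42.0, the study's tool, was an alternative. The standard error is the log2 fold change over the square root of F. Printed CPM are counts over DESeq2's size factors times the geometric mean total, and the logarithm used a pseudocount of 1. The scripts were tested on simulated data, where recovery was required only at a low simulated spread. That does not show how many true differences the test would find at the spread of these pools. Exon lengths and positions are from GENCODE vM21 on GRCm38. Replicates with equal numbers did not deviate together (r from -0.0273 to 0.00764 over 7504 genes), so the numbers were not used as pairs in the comparisons. Whether such pools shared a mouse cannot be read from these values.

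Named beside the 10 receptors were pathway genes called in a comparison, up to 2 genes per pathway list with the highest mean CPM, marker sums and, for receptors with 10 CPM in both replicates of a group, the 3 genes with the highest r. Further pathway genes were named after their values were seen. Calcium imaging and nerve recordings were not analysed here. One marker of the lists is not reported here.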

Additional observations from a re-analysis of the deposited data

How the results depend on the processing

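The number of receptors called was 0 in all 5 comparisons with edgeR. It stayed 0 with RLE normalization, no filter on low counts, without Rn45s, 1 fit to all 10 pools, no CPM threshold and the replicate block. Few genes of any kind were called by edgeR. Across these settings it called 13 to 59 genes in the Trpv1-tdTomato selection, 0 to 122 in the capsaicin selection and 1 to 10 between Trpv1+ and Trpv1- nodose pools. Over both selections it called 41 to 222 and for the interaction 0 to 95. With so few calls, 0 receptors called says little about the receptors. With a pool left out, 1 group holds a single pool, so no count is given for those fits. The number of receptors called differed only with DESeq2, which called 1 receptor (Agtr1a) in the capsaicin selection and 1 (Agtr1a) over both selections. With no CPM threshold on DESeq2, an alternative chosen after seeing the data, it called 1, 2 (Ednra and Tacr3, Trpv1+ against Trpv1- nodose) and 1. DESeq2 also called more of all genes than edgeR, 510 against 35, 707 against 0, 390 against 6, 1117 against 69 and 1074 against 0 in the 5 comparisons, and the cause was not tested. Of 219 single-gene alternatives, 196 kept direction and call, 5 passed the threshold only in the alternative and 18 reversed. With the replicate number as a block, Ednra turned to -0.19 in the capsaicin selection and Ednrb to -0.10 over both. The block gave 13, 20, 1, 41 and 0 calls over all genes, and Agtr1a was at -9.69 and -9.14 in the same 2 comparisons (edgeR adjusted p = 1 and 0.721). Over all alternatives the adjusted p of Agtr1a ran from 0.00117 to 1 in the capsaicin selection and from 0.000183 to 0.721 over both. Leaving out 1 pool turned the sign of 5 values in the single comparisons (Agtr1a -10.80 to 0.63 and Ednrb -3.70 to 0.19 in the Trpv1-tdTomato selection; Ednra -11.22 to 8.61 and Ednrb -0.23 to 11.38 in the capsaicin selection; Tacr1 -0.19 to 0.74 between Trpv1+ and Trpv1- nodose pools, also -0.16). Ednra turned to -0.54 without the first capsaicin jugular pool. Over both selections Ednra turned to -0.41 and -0.47 (highest 2.90), and Ednrb to -0.52, -0.29 and -0.42 (highest 0.96). In the interaction Agtr1a turned to -0.97 (highest 10.31) and Ednra to -3.25, -0.22 and -7.51 (highest 14.66). None of these values passed the test. At 17666710 to 30810863 counts and 14 to 16 cells per pool, levels under 0.118 to 0.176 CPM could not be told from 0 in the capsaicin selection.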
